A study of Mus musculus with 16 samples.

Results

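Bone morphogenetic proteins (BMPs) and activins are secreted ligands of the TGF-β family, and gremlin and the follistatins are secreted proteins that bind such ligands. Here, 10 genes of this system, of 49452 genes measured, were followed in sorted mouse lung cells: the secreted binding proteins *Grem1*, *Fst*, *Fstl1* and *Fstl3*, the ligands *Inhba* and *Bmp4*, the receptor *Bmpr2* and the pseudoreceptor *Bambi*, and the target genes *Id1* and *Id3*. The genes were taken by symbol, and they were selected on their FPKM and scaled FPKM in these same 4 groups of mice. Their differences between groups are therefore given as a description, with no p-value, and nothing is read from how many of them passed a test.

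The cells were tdTomato-positive lung cells, sorted by flow cytometry from the left lobe of 16 male mice on a C57BL6 background, 4 mice in each of 4 groups, at day 14 after saline or bleomycin and at 11 weeks of age. Bleomycin is a drug that injures the lung and leads to fibrosis when instilled into the airways. *Acta2-tdT* mice (Acta2-CreERT2; tdTomatoflox) carry a tamoxifen-inducible Cre under the promoter of *Acta2*, the gene of α-smooth muscle actin, and received tamoxifen in food at 400 mg/kg from day 5. *Pdgfra-tdT* mice (Pdgfra-CreERT2; tdTomatoflox) carry the Cre under the promoter of *Pdgfra*, a growth factor receptor of fibroblasts, and received 5 injections of 3 mg tamoxifen at 6 weeks of age. All mice thus carried a Cre, the floxed tdTomato and tamoxifen. Saline mice were numbered 1 to 4 and bleomycin mice 5 to 8 in each line. The lines differed in the tamoxifen route and time as well as in the promoter, and these cannot be told apart.

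Expression was given as FPKM, fragments counted per kilobase of transcript and scaled to the mapped fragments of the library, without scaling between mice, and the depth is unknown. The summed FPKM of nuclear protein-coding genes spanned 35603 to 57788 in the saline and 231058 to 463127 in the bleomycin mice of *Acta2-tdT*, 29964 to 59840 in *Pdgfra-tdT* saline and 28512 to 137952 in *Pdgfra-tdT* bleomycin mice. Differences are therefore mostly given both as FPKM and as scaled FPKM, in which this sum was set to 49123 in every mouse. The scaling moved the median log2 difference of all tested genes from 1.76 to -0.02 for bleomycin against saline in *Acta2-tdT*, from 1.81 to 0.14 for the lines with bleomycin, from 0.17 to 0.02 for the lines with saline and from 0.02 to -0.25 for bleomycin in *Pdgfra-tdT*. As a gauge of signal in genes without a role in the lung, the median FPKM of 1962 olfactory and vomeronasal receptor genes spanned 0.282 to 0.297 with saline and 0 to 0.0689 with bleomycin in *Acta2-tdT* mice. It was 0.0964 to 0.293 in *Pdgfra-tdT* saline and 0.0460 to 0.269 in *Pdgfra-tdT* bleomycin mice.

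The gene that marks the *Acta2-tdT* line, *Acta2*, had 139 to 314 FPKM in its saline and 1229 to 3211 FPKM in its bleomycin mice. *Pdgfra* was 2.14 to 3.82 FPKM in *Pdgfra-tdT* saline and 0.977 to 2.45 FPKM in *Pdgfra-tdT* bleomycin cells, and 2.49 to 11.9 FPKM in *Acta2-tdT* bleomycin cells, so this gene was not highest in the line it marks as FPKM. As scaled FPKM it was highest in *Pdgfra-tdT* saline cells (2.91 to 4.95), and *Pdgfra-tdT* bleomycin (0.873 to 2.33) and *Acta2-tdT* bleomycin cells (0.529 to 1.26) overlapped. Of 6 fibroblast markers, none was at 0 in all mice of a group, and their summed FPKM was 6.82 to 56.4 in *Pdgfra-tdT* saline and 2.62 to 160.0 in *Pdgfra-tdT* bleomycin mice. With bleomycin this sum was far higher in the *Acta2-tdT* line, at 1030 to 3143 FPKM, and with saline it was 19.1 to 38.7 FPKM there. In *Pdgfra-tdT* bleomycin mice 5, 6, 7 and 8, the number of these markers that reached 1 FPKM was 6, 3, 1 and 0. The 9 leukocyte markers summed to 720 to 1425 FPKM in *Acta2-tdT* saline, 4668 to 6826 in *Acta2-tdT* bleomycin, 47.8 to 114 in *Pdgfra-tdT* saline and 372 to 3320 in *Pdgfra-tdT* bleomycin mice. *Pdgfra-tdT* saline mouse 3 and *Pdgfra-tdT* bleomycin mouse 5 stood apart in 7 endothelial markers, which summed to 366 and 967 FPKM, against 4.42 to 10.6 in the other saline and 4.39 to 106 in the other bleomycin mice of the line. Where leaving out these libraries changed a difference of *Id1*, *Id3* or *Bmpr2* that is given here, the value without them stands beside it. In sorted bulk RNA, more cells of a kind and more RNA per cell cannot be told apart.

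BMP ligands bind a pair of receptor kinases, and the receptors phosphorylate SMAD proteins that enter the nucleus and switch on target genes, of which the *Id* genes are the best known. Activins use related receptors and a different set of SMADs. Gremlin binds BMPs, whereas follistatin and its relative FSTL3 bind activins most tightly, so antagonists can hold ligand away from its receptor outside the cell. In the lung, mutations of *BMPR2* are the best known genetic cause of pulmonary arterial hypertension, and gremlin has been linked to fibrotic lung disease.

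For 7 of the 10 genes a RefSeq promoter of build GRCm38.p6 was at hand, and those of an antagonist of BMPs, an antagonist of activins and the activin subunit are printed, since these are genes whose levels were high together in *Acta2-tdT* bleomycin cells. Each sequence holds the 250 bases before the RefSeq start site, 5′ to 3′ along the gene's own strand. Capitals mark the motifs searched on both strands, GGCGCC (an element bound by SMAD1 and SMAD5), CAGAC (the core of the SMAD-binding element, GTCTG on the other strand) and TATAAA (the TATA box, TTTATA on the other strand). They do not overlap in these windows. *Grem1* lies at chr2:113758649-113758898 (minus strand), *Fstl3* at chr10:79777024-79777273 (plus strand) and *Inhba* at chr13:16011601-16011850 (plus strand).
Grem1: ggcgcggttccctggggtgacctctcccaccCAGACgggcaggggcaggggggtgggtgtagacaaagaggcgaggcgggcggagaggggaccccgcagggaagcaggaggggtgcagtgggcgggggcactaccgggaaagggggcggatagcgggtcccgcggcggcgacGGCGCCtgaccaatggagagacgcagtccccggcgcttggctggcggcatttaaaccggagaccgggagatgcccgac
Fstl3: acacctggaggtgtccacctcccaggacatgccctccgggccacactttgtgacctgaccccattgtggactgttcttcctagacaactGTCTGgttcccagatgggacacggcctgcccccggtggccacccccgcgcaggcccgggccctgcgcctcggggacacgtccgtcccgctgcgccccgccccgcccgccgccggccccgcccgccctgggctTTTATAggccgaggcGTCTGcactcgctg
Inhba: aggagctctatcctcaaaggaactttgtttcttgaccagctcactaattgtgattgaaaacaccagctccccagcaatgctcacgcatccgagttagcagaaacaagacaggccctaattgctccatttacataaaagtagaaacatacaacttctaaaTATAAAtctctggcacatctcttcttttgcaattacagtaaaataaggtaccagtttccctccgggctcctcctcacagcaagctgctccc

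The *Grem1* window held 1 GGCGCC, 78 bases before the start, and 1 CAGAC, 219 bases before it. That of *Fstl3* held 2 CAGAC motifs, 161 and 14 bases before the start, and a TATAAA 29 bases before it, and that of *Inhba* held a TATAAA 91 bases before the start. Among all 32851 RefSeq promoters, 9.59% held a GGCGCC, 42.2% a CAGAC and 12.4% a TATAAA in the same window, so that each motif is common. Of the other windows, that of *Bmpr2* held a GGCGCC 105 bases before the start and that of *Id3* held 2 CAGAC motifs, and those of *Fstl1* and *Bmp4* held none of the 3 motifs. The RefSeq starts of *Bmpr2* and *Id3* lie downstream of the locus starts in the expression files. A match is a string of letters and no evidence of binding.

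The antagonists were low in all cells except those of *Acta2-tdT* bleomycin mice. *Grem1* (ENSMUSG00000074934, chr2:113746164-113758646, minus strand), which encodes gremlin 1, had 0.0687, 0.117, 0.334 and 0.212 FPKM in the 4 *Acta2-tdT* saline mice and 29.9, 17.3, 17.6 and 26.9 FPKM in the 4 bleomycin mice. In *Pdgfra-tdT* cells it had 0.138, 0.221, 0.454 and 0.281 FPKM with saline and 0.302, 0.173, 0.140 and 0.183 FPKM with bleomycin. The *Acta2-tdT* bleomycin mice lay far above all 12 other mice. On the scaled values they had 4.62, 3.68, 1.98 and 2.85 scaled FPKM against at most 0.383 in any other mouse. In the other groups *Grem1* was no higher than many receptor genes, since 46.3% to 78.0% of them reached its FPKM in *Acta2-tdT* saline mice, against at most 0.306% in *Acta2-tdT* bleomycin mice. The difference between bleomycin and saline in *Acta2-tdT* cells was 4.30 ± 0.21 (SE) on the log2(FPKM + 1) scale and 1.81 ± 0.21 (SE) on the log2(scaled FPKM + 1) scale, and in *Pdgfra-tdT* cells it was -0.08 ± 0.09 and -0.17 ± 0.07.

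*Fst* (ENSMUSG00000021765, chr13:114452262-114458730, minus strand), the gene of follistatin, had 0.743, 0.608, 1.01 and 1.18 FPKM in *Acta2-tdT* saline and 54.1, 19.0, 46.4 and 56.8 FPKM in *Acta2-tdT* bleomycin mice. In *Pdgfra-tdT* cells its FPKM was 0.596, 0.655, 0.336 and 1.02 with saline and 0.348, 0.440, 0.574 and 1.04 with bleomycin. Only the *Acta2-tdT* bleomycin mice stood out, and mouse 6 was the lowest of them, as it was for *Grem1*, *Fstl3* and *Inhba*. On the scaled values, *Fst* had 8.35, 4.04, 5.23 and 6.03 scaled FPKM in these mice and 0.839 to 1.02 in the *Acta2-tdT* saline mice. Both groups were apart on both scales, with a log2 difference of 4.48 ± 0.37 (SE) as FPKM and 1.78 ± 0.19 (SE) as scaled FPKM.

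*Fstl1* (ENSMUSG00000022816, chr16:37776873-37836514, plus strand), which encodes a secreted follistatin-like glycoprotein, was the most abundant of the binding proteins. It had 3.69, 2.70, 5.94 and 8.16 FPKM in *Acta2-tdT* saline and 141, 159, 276 and 323 FPKM in *Acta2-tdT* bleomycin mice, and in *Pdgfra-tdT* cells 0.225, 0.637, 3.20 and 1.78 with saline and 9.31, 1.15, 0.328 and 0.234 with bleomycin. It was the one antagonist present above the receptor genes in every *Acta2-tdT* saline mouse, where at most 4.84% of these genes reached its FPKM. After scaling, the *Acta2-tdT* bleomycin mice had 21.7, 33.9, 31.1 and 34.2 scaled FPKM and the saline mice 3.72 to 6.94, a log2 difference of 2.29 ± 0.22 (SE), against 5.20 ± 0.41 (SE) as FPKM.

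*Fstl3* (ENSMUSG00000020325, chr10:79777272-79782630, plus strand), which encodes a second activin-binding protein, had 0.357, 0.560, 0.765 and 1.21 FPKM in *Acta2-tdT* saline and 14.8, 9.32, 27.8 and 37.7 FPKM in *Acta2-tdT* bleomycin mice. In *Pdgfra-tdT* saline cells it had 0.0216 to 0.120 FPKM, with a lower Cufflinks bound of 0 in all 4 mice, and with bleomycin it had 0.210 FPKM in mouse 5 and 0.0796 to 0.0933 FPKM in the other 3. *Fstl3* was thus the antagonist with the lowest level in *Pdgfra-tdT* cells, where 35.5% to 86.7% of the receptor genes reached its FPKM. The *Acta2-tdT* bleomycin mice had 2.28, 1.98, 3.14 and 4.00 scaled FPKM and the saline mice 0.476, 0.773, 0.774 and 1.03, which gave a log2 difference of 1.11 ± 0.19 (SE), against 3.61 ± 0.45 (SE) as FPKM.

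**Figure D1:**
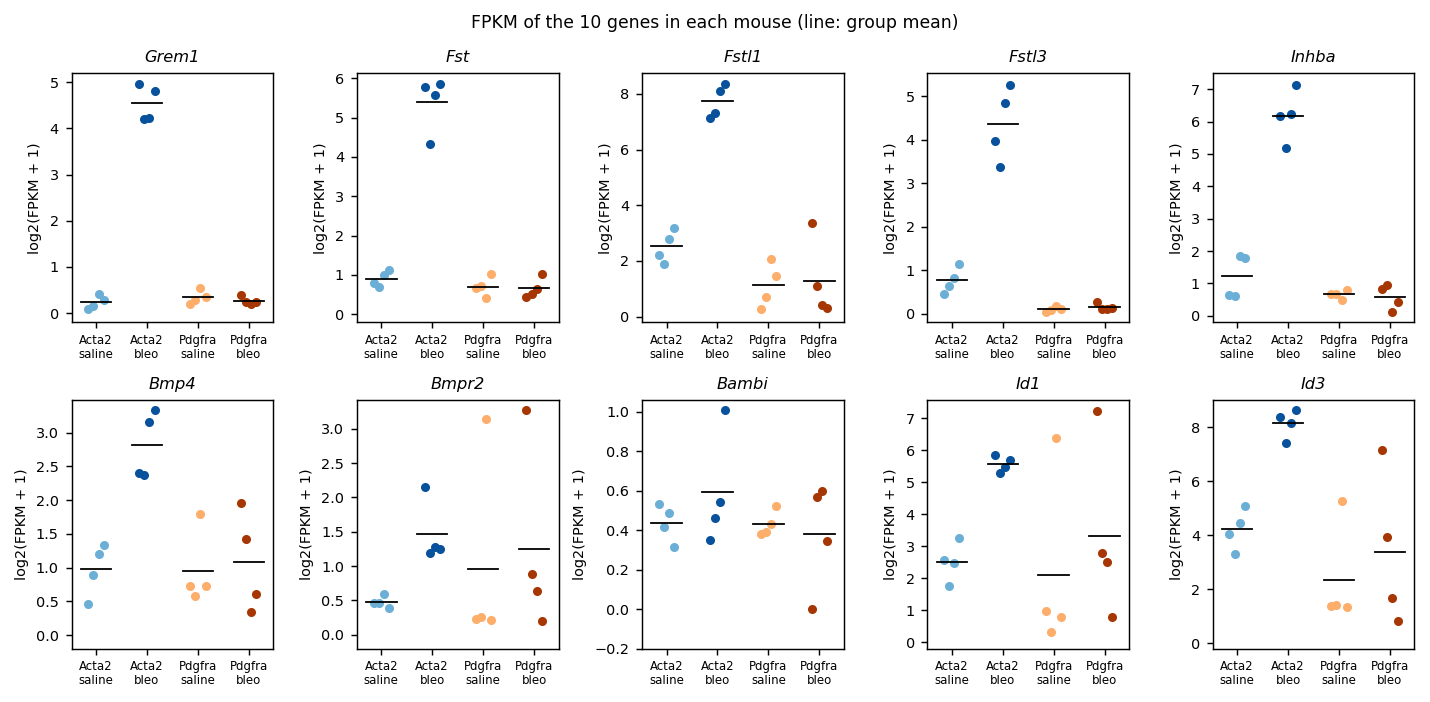
Each panel plots log2(FPKM + 1) of 1 gene, on its own vertical axis, in the 16 mice by line and agent (Acta2 and Pdgfra stand for the *Acta2-tdT* and *Pdgfra-tdT* lines, bleo for bleomycin), with 1 point per mouse and a line at the group mean. The 4 antagonists and *Inhba* are high in all 4 *Acta2-tdT* bleomycin mice, while *Bmpr2*, *Id1* and *Id3* also have 1 high mouse in each *Pdgfra-tdT* group.

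The ligands behaved differently from each other. *Inhba* (ENSMUSG00000041324, chr13:16011851-16027211, plus strand) encodes the βA subunit, 2 of which form activin A. It had 0.556, 0.513, 2.59 and 2.43 FPKM in *Acta2-tdT* saline and 71.8, 35.1, 74.5 and 140.1 FPKM in *Acta2-tdT* bleomycin mice. In *Pdgfra-tdT* cells it had 0.592, 0.609, 0.394 and 0.743 FPKM with saline and 0.771, 0.950, 0.0939 and 0.331 FPKM with bleomycin. The *Acta2-tdT* bleomycin mice again lay above all others, also after scaling, with 11.1, 7.47, 8.40 and 14.9 scaled FPKM against 0.741, 0.708, 2.62 and 2.06 in *Acta2-tdT* saline mice. Within *Acta2-tdT* the log2 difference was 4.97 ± 0.53 (SE) as FPKM and 2.21 ± 0.34 (SE) as scaled FPKM.

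*Bmp4* (ENSMUSG00000021835, chr14:46383520-46390669, minus strand), which encodes a BMP ligand needed for lung development, had 0.383, 0.855, 1.30 and 1.52 FPKM in *Acta2-tdT* saline and 4.28, 4.20, 7.92 and 9.15 FPKM in *Acta2-tdT* bleomycin mice. In *Pdgfra-tdT* cells it had 0.664, 0.488, 2.47 and 0.651 FPKM with saline and 2.90, 1.68, 0.273 and 0.521 FPKM with bleomycin. The *Acta2-tdT* groups did not overlap as FPKM, with a log2 difference of 1.85 ± 0.32 (SE), close to the median of all tested genes. After scaling they overlapped, with 0.660, 0.892, 0.892 and 0.970 scaled FPKM with bleomycin and 0.510, 1.18, 1.32 and 1.29 with saline, and the log2 difference was -0.14 ± 0.16 (SE). With the receptor-gene median subtracted before the scaling it was 0.06 ± 0.21 (SE), so that no direction was stable for *Bmp4*.

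**Figure D2:**
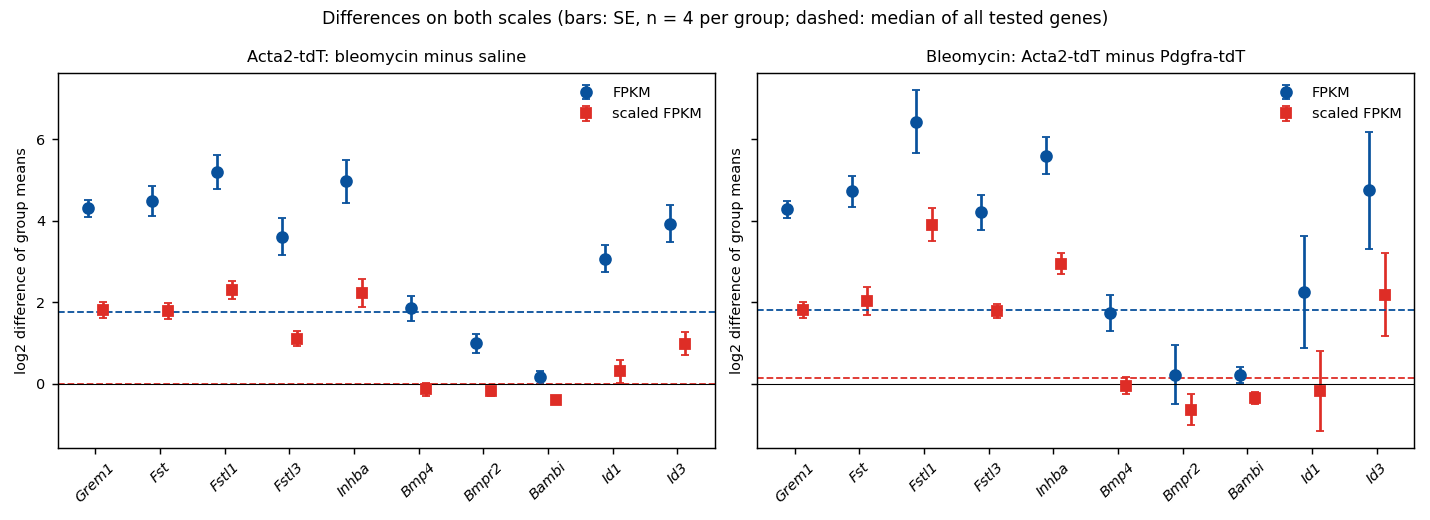
Log2 differences of group means for the 10 genes, as FPKM (circles) and scaled FPKM (squares), with SE bars (n = 4 mice a group); the left panel is bleomycin minus saline in *Acta2-tdT*, the right panel *Acta2-tdT* minus *Pdgfra-tdT* with bleomycin, and dashed lines are the medians of all tested genes. The 4 antagonists and *Inhba* lie above the dashed line of their own scale in both panels, and *Bmp4*, *Bmpr2* and *Bambi* lie near or below it.

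The receptors were measured at low levels. *Bmpr2* (ENSMUSG00000067336, chr1:59763400-59879014, plus strand), the type II receptor for BMPs, had 0.372, 0.385, 0.510 and 0.316 FPKM in *Acta2-tdT* saline and 3.44, 1.29, 1.42 and 1.38 FPKM in *Acta2-tdT* bleomycin mice. In *Pdgfra-tdT* cells it was 0.168, 0.193 and 0.163 FPKM in saline mice 1, 2 and 4 but 7.85 FPKM in mouse 3, and 8.66, 0.840, 0.553 and 0.152 FPKM with bleomycin. The highest values of *Bmpr2* were thus in the libraries with high endothelial markers, and the part of endothelial RNA was not tested. Within *Acta2-tdT* the difference was 0.99 ± 0.23 (SE) on the log2 scale as FPKM and -0.19 ± 0.12 (SE) as scaled FPKM, where the groups overlapped (0.146 to 0.531 against 0.269 to 0.531 scaled FPKM). Subtracting the receptor-gene median first gave 0.15 ± 0.10 (SE). Between the lines with saline, *Bmpr2* differed by -0.48 as FPKM and -0.45 as scaled FPKM on the log2 scale, with overlap, and without *Pdgfra-tdT* mouse 3 by 0.25, without overlap, and 0.19, with overlap.

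*Bambi* (ENSMUSG00000024232) encodes a pseudoreceptor that lacks the kinase domain and blocks BMP and activin receptors. It had 0.449, 0.337, 0.402 and 0.242 FPKM in *Acta2-tdT* saline, 0.274, 0.378, 0.456 and 1.02 in *Acta2-tdT* bleomycin, 0.301, 0.311, 0.347 and 0.437 in *Pdgfra-tdT* saline and 0, 0.485, 0.515 and 0.269 in *Pdgfra-tdT* bleomycin mice. All groups overlapped as FPKM, and *Bambi* reached 1 FPKM in 1 of 16 mice. In the *Acta2-tdT* saline mice 38.4% to 54.6% of the receptor genes reached its FPKM, so its level there was that of the gauge. In *Acta2-tdT* bleomycin mice 5, 6, 7 and 8 it was 21.2%, 29.4%, 9.89% and 1.53%, so *Bambi* was above most receptor genes there. The scaled values were lower with bleomycin in *Acta2-tdT* cells (0.0423 to 0.108 against 0.206 to 0.598 scaled FPKM), and with the gauge subtracted first the log2 difference was -0.05 ± 0.06 (SE).

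The *Id* genes encode proteins that bind and hold back basic helix-loop-helix transcription factors. *Id1* (ENSMUSG00000042745, chr2:152736251-152737410, plus strand) had 4.90, 2.36, 4.54 and 8.50 FPKM in *Acta2-tdT* saline and 56.5, 38.1, 43.5 and 51.1 FPKM in *Acta2-tdT* bleomycin mice. The log2 difference was 3.07 ± 0.33 (SE) as FPKM, and 0.30 ± 0.28 (SE) as scaled FPKM, where the groups overlapped (8.73, 8.09, 4.90 and 5.42 against 6.53, 3.26, 4.59 and 7.22 scaled FPKM). In *Pdgfra-tdT* cells *Id1* had 0.945, 0.242 and 0.739 FPKM in saline mice 1, 2 and 4 and 82.5 FPKM in mouse 3, and 150.4, 5.95, 4.68 and 0.740 FPKM with bleomycin. These 2 high libraries exceeded every *Acta2-tdT* bleomycin mouse, and their endothelial markers were high as well.

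*Id3* (ENSMUSG00000007872, chr4:136143497-136145392, plus strand) had 15.3, 8.82, 20.8 and 32.4 FPKM in *Acta2-tdT* saline and 332, 168, 282 and 395 FPKM in *Acta2-tdT* bleomycin mice. Unlike *Id1*, it stayed apart after scaling, with 51.3, 35.8, 31.8 and 41.9 against 20.4, 12.2, 21.1 and 27.6 scaled FPKM. The log2 difference was 3.93 ± 0.46 (SE) as FPKM and 0.98 ± 0.28 (SE) as scaled FPKM. In *Pdgfra-tdT* cells *Id3* had 1.58, 1.67, 37.9 and 1.51 FPKM with saline and 140.1, 14.3, 2.15 and 0.782 FPKM with bleomycin, with the same 2 mice highest. Without saline mouse 3 the difference between the lines with saline went from 0.39 to 1.82 for *Id1* and from 1.86 to 2.84 for *Id3* on the log2 scale as FPKM, and from 0.40 to 1.69 and from 1.77 to 2.57 as scaled FPKM, and *Acta2-tdT* cells were then above *Pdgfra-tdT* cells for both genes.

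**Figure D3:**
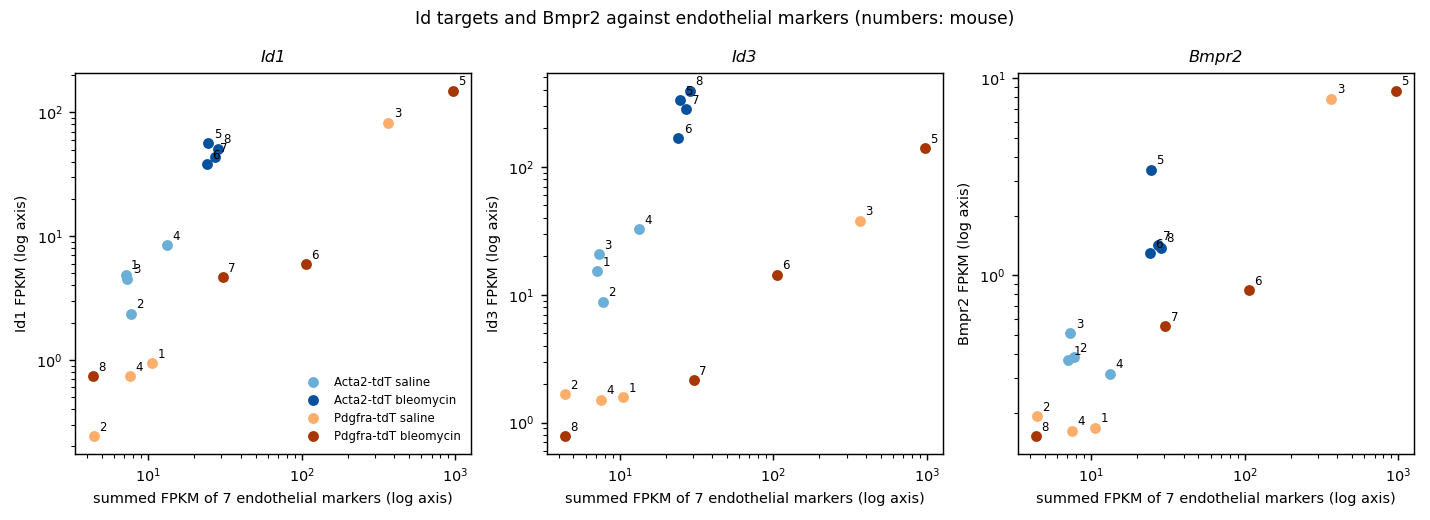
FPKM of *Id1*, *Id3* and *Bmpr2* (log axis) against the summed FPKM of 7 endothelial markers (log axis) in each of the 16 mice, colored by group and numbered by mouse. *Pdgfra-tdT* mice 3 and 5 lie at the far right with the highest *Id1* and *Bmpr2*, whereas the *Acta2-tdT* bleomycin mice have high *Id1* and *Id3* at marker sums of 24.2 to 28.5 FPKM.

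In *Acta2-tdT* cells the sum of the endothelial markers was higher with bleomycin as FPKM and lower as scaled FPKM. It was 7.12 to 13.3 FPKM in saline mice and 24.2 to 28.5 FPKM in bleomycin mice, and scaled it was 7.41 to 11.3 and 3.02 to 5.13. *Cldn5* made up most of it, with 4.15 to 9.78 FPKM with saline and 12.7 to 19.1 FPKM with bleomycin. *Cdh5*, *Tek* and *Emcn* overlapped between the groups as FPKM, and *Pecam1* overlapped as scaled FPKM. Fibroblast markers moved with the antagonists: the 6 markers of *Acta2-tdT* mice summed to 25.4 to 32.9 scaled FPKM with saline against 219 to 333 with bleomycin. The 5 smooth muscle markers summed to 221 to 321 and 286 to 438 scaled FPKM in the same groups, and the 9 leukocyte markers to 993 to 1442 and 523 to 1026. The part of these cell types in the differences was not tested.

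Within each mouse, the antagonists and ligands were also set against each other, which needs no scaling between mice. The summed FPKM of the 4 antagonists in *Acta2-tdT* mice was 3.98 to 10.8 with saline against 205 to 444 with bleomycin, of which *Fstl1* made up 67.7% to 75.9% and 58.7% to 77.7%. The 2 ligands summed to 0.939 to 3.95 and 39.3 to 149 FPKM. The ratio of antagonists to ligands was 5.17, 2.91, 2.07 and 2.73 with saline and 3.15, 5.21, 4.47 and 2.98 with bleomycin, so the groups overlapped and the balance of the sums did not separate them. The saline ratios rest on low ligand sums. In saline mouse 1, with the sum of 0.939 FPKM, 42.6% of the receptor genes reached *Bmp4*.

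In *Acta2-tdT* cells the ratio of *Id1* and *Id3* to the antagonists was lower with bleomycin. It was 4.16, 2.81, 3.15 and 3.80 in *Acta2-tdT* saline and 1.62, 1.01, 0.884 and 1.01 in *Acta2-tdT* bleomycin mice, without overlap. In *Pdgfra-tdT* cells it was 2.58, 1.22, 29.2 and 0.714 with saline and 28.6, 11.0, 6.09 and 0.982 with bleomycin. These groups overlapped, with a median of 8.53 with bleomycin and 1.90 with saline, and of 6.09 and 1.22 without saline mouse 3 and bleomycin mouse 5. The antagonist sums of *Pdgfra-tdT* mice were low, at 0.980 to 4.12 FPKM with saline and 1.12 to 10.2 FPKM with bleomycin. Genes under 1 FPKM were kept in the sums, so these ratios rest in part on values near the receptor-gene gauge.

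Single pairs were compared in the same way. Where both genes reached 1 FPKM, *Grem1* was 2.22 to 7.0 times *Bmp4* in the 4 *Acta2-tdT* bleomycin mice, and no mouse of another group had both genes at 1 FPKM. *Fst* was 0.405 to 0.754 times *Inhba* in these mice, and 0.390 and 0.485 times in the 2 *Acta2-tdT* saline mice where both reached 1 FPKM. *Id3* was 4.42 to 7.73 times *Id1* in *Acta2-tdT* bleomycin and 3.13 to 4.59 times *Id1* in *Acta2-tdT* saline mice, but 0.459 times in *Pdgfra-tdT* saline mouse 3. In the *Pdgfra-tdT* bleomycin mice 5, 6 and 7 it was 0.931, 2.40 and 0.460 times *Id1*, and in the other *Pdgfra-tdT* mice *Id1* was under 1 FPKM.

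**Figure D4:**
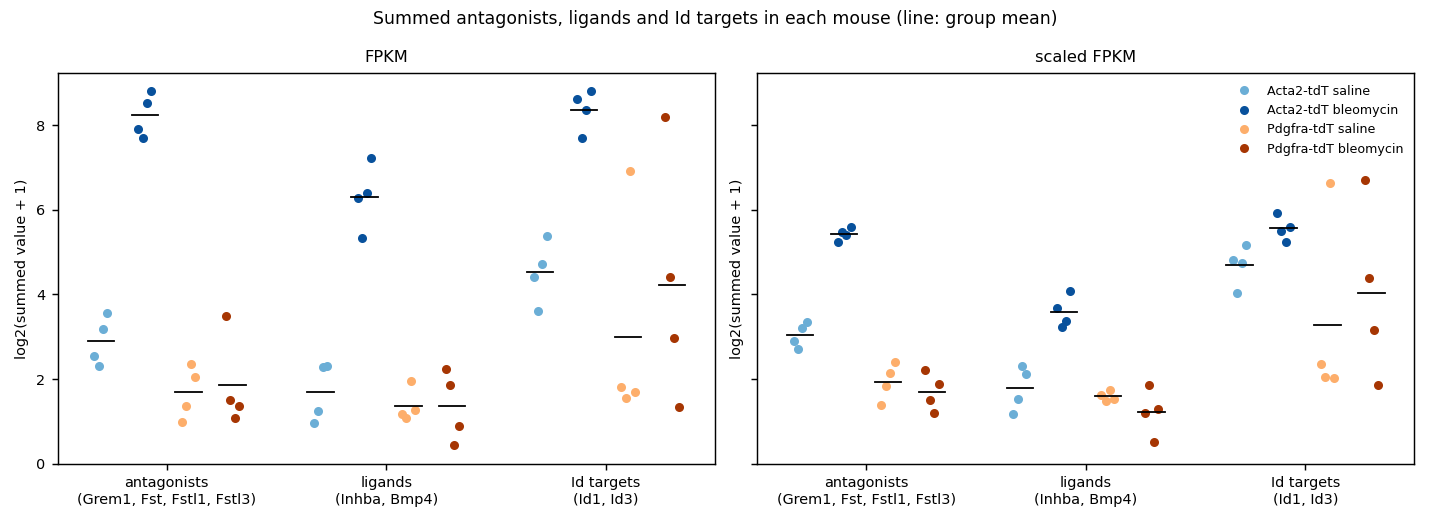
Log2 of the summed value + 1 of the 4 antagonists, the 2 ligands and the 2 *Id* targets in each mouse, as FPKM (left) and scaled FPKM (right), with 1 point per mouse and a line at the group mean. On both scales the antagonist and ligand sums of the 4 *Acta2-tdT* bleomycin mice lie above all other mice, while the *Id* sums of *Pdgfra-tdT* saline mouse 3 and bleomycin mouse 5 are the highest of all after scaling.

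FPKM are per length, so levels can be ordered between genes. In *Acta2-tdT* bleomycin cells *Id3* (294 ± 96.0 FPKM, SD, n = 4) and *Fstl1* (225 ± 88.8) were highest and overlapped each other, followed by *Inhba* (80.4 ± 43.7), *Id1* (47.3 ± 8.16), *Fst* (44.1 ± 17.3), *Grem1* (22.9 ± 6.45) and *Fstl3* (22.4 ± 12.8), each overlapping the next. *Bmp4* (6.38 ± 2.53), *Bmpr2* (1.88 ± 1.04) and *Bambi* (0.531 ± 0.332) followed without overlap. In *Acta2-tdT* saline cells *Id3* (19.4 ± 10.01 FPKM) was apart from all the others, *Fstl1* (5.12 ± 2.44) and *Id1* (5.07 ± 2.54) overlapped, and *Grem1* (0.183 ± 0.117) was last.

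In *Pdgfra-tdT* saline cells *Id1* (21.1 ± 40.9 FPKM) and *Id3* (10.7 ± 18.1) had the highest means, and their SDs exceeded the means since 1 mouse carried most of the signal. All neighbors in the order overlapped except *Grem1* (0.274 ± 0.134) and *Fstl3* (0.0684 ± 0.0405), the lowest. With bleomycin the order was again led by *Id1* (40.5 ± 73.4) and *Id3* (39.3 ± 67.4), and all neighbors overlapped. The place of *Grem1* therefore moved from last with saline to the level of *Fstl3* with bleomycin in *Acta2-tdT* cells, and it was next to last in both *Pdgfra-tdT* groups. Outside *Acta2-tdT* bleomycin mice 31.1% to 78.0% of the receptor genes reached *Grem1*, so its place among the low genes there carries little meaning.

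Between the lines with bleomycin, *Acta2-tdT* cells were above *Pdgfra-tdT* cells without overlap on both scales for *Grem1*, *Fst*, *Fstl1*, *Fstl3* and *Inhba*, with log2 differences of 4.28 ± 0.20, 4.72 ± 0.38, 6.44 ± 0.77, 4.21 ± 0.43 and 5.60 ± 0.44 (SE) as FPKM and 1.81 ± 0.20, 2.03 ± 0.33, 3.90 ± 0.41, 1.78 ± 0.17 and 2.95 ± 0.27 (SE) as scaled FPKM. *Id3* was above without overlap as FPKM (4.75) and overlapped as scaled FPKM (2.19), and without *Pdgfra-tdT* mouse 5 it did not overlap on either scale (6.00 and 3.03). The fibroblast markers summed to 219 to 333 scaled FPKM in *Acta2-tdT* and 4.08 to 57.0 in *Pdgfra-tdT* bleomycin mice. The smooth muscle markers summed to 286 to 438 and 1.36 to 8.94, and the part of these cell types was not tested. With saline, *Fstl3* was above *Pdgfra-tdT* cells without overlap on both scales (0.67 ± 0.15 and 0.69 ± 0.10 log2, SE) at no more than 1.21 FPKM, and *Fstl1* after scaling. *Grem1* was not higher in *Acta2-tdT* than in *Pdgfra-tdT* cells with saline, with a log2 difference of -0.11 ± 0.10 (SE).

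Of the 10 genes, 9 passed the filter for bleomycin against saline in *Acta2-tdT* cells (1 FPKM or more in 4 or more of its 8 mice), and *Bambi* did not. *Grem1* and *Bmpr2* passed through the bleomycin mice alone and so had to differ. All 9 were called higher by limma at an adjusted p under 0.05, where 70.4% of all 12523 tested genes were called higher and 16.3% lower, and on the scaled values 6 were called higher, where 23.9% of all were called higher and 32.6% lower. With bleomycin, 7 of 9 were called higher in *Acta2-tdT* than in *Pdgfra-tdT* cells, beside 71% of all genes higher and 8.61% lower, and 5 on the scaled values, beside 15.8% and 17.6%. With saline none of 3 tested was called between the lines, beside 2.72% of all higher and 0.184% lower (3.2% and 0.221% scaled), and none of 3 for bleomycin in *Pdgfra-tdT* cells, beside 0.0275% higher and 0.0962% lower (0.0275% and 0.11% scaled). Of the effect of bleomycin between the lines, the interaction, 6 of 9 were called larger in *Acta2-tdT* cells, beside 36.6% of all larger and 3.2% smaller, and 5 on the scaled values, beside 1.33% and 0.891%. These values chose the genes, and nothing is read from the counts.

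The effect of bleomycin in *Acta2-tdT* minus that in *Pdgfra-tdT* was 4.39 for *Grem1*, 4.53 for *Fst*, 5.05 for *Fstl1*, 3.54 for *Fstl3* and 5.05 for *Inhba* as log2 of FPKM, and 1.98, 1.96, 2.53, 1.08 and 2.53 as log2 of scaled FPKM. For *Bmp4* it was 1.72 and 0.02, for *Bmpr2* 0.70 and -0.20, for *Id1* 1.85 and -0.57, for *Id3* 2.89 and 0.42 and for *Bambi* 0.21 and -0.29. The antagonists and *Inhba* therefore kept the sign on both scales, while *Bmpr2*, *Id1* and *Bambi* turned. Without *Pdgfra-tdT* saline mouse 3 and bleomycin mouse 5 the values were 1.73 and -0.97 for *Id1*, 3.16 and 0.45 for *Id3* and 0.65 and -0.49 for *Bmpr2*, with the same signs. For *Bmp4* they were 1.73 and -0.11, so its scaled value changed sign.

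Over all 16 mice, the 5 protein-coding genes whose log2(scaled FPKM + 1) followed *Grem1* most closely among 10364 genes were *Col12a1* (Pearson's r = 0.985), a collagen, *Tnc* (0.979), the matrix protein tenascin C, *Bmper* (0.978), a secreted BMP-binding protein, *Ptprn* (0.970) and *Gm9913* (0.967). All were at their highest in *Acta2-tdT* bleomycin cells, where *Tnc* had a mean of 9.87 scaled FPKM against 0.456 to 0.819 in the other groups. *Fst* ranked 63 (0.924) and *Inhba* 78 (0.914) for *Grem1*, and *Id1* ranked 6206 (0.061), or 4504 (0.434) over the 14 mice left without *Pdgfra-tdT* saline mouse 3 and bleomycin mouse 5. Those closest to *Id1* were *Eng* (0.959), the endothelial co-receptor endoglin, *Slc43a3* (0.954), *Ankrd13a* (0.953), *Cav1* (0.952) and *Adgre5* (0.949), and *Bmpr2* ranked 363 (0.837) and *Id3* 1329 (0.718). Over the same 14 mice, *Eng* ranked 509 for *Id1* (0.866), *Cav1* 454 (0.871), *Id3* 954 (0.824) and *Bmpr2* 6212 (0.316), so the likeness of *Id1* to *Bmpr2* rested on those 2 mice. These correlations are over mice that share groups, and 4 mice carry the pattern of *Grem1*, so they describe likeness and no more.

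Of 77 other genes of the BMP and activin pathway, 29 were tested for bleomycin against saline in *Acta2-tdT* cells, and 16 of these passed through the bleomycin mice alone. As FPKM, 26 of 29 (89.7%) rose and none fell, beside the 70.4% of all genes called higher, and the median log2 difference was 1.69, against 1.76 for all tested genes. As scaled FPKM, 3 of 29 (10.3%) rose and 10 (34.5%) fell, beside 23.9% higher and 32.6% lower of all genes, with a median of 0.02, against -0.02 for all. Without the filter, 28 of 75 rose and 3 fell, beside 23.8% higher and 12.6% lower among 42342 genes. Leaving out bleomycin mouse 5, 6, 7 or 8 left 9, 10, 8 and 8 calls among 11, 12, 12 and 11 tested, since the 3 others alone no longer pass a filter of 4 mice. Of all genes, 5350 of 8790, 5419 of 8686, 5247 of 8763 and 5253 of 8813 were then called higher, and 1932, 2059, 1759 and 1720 lower.

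Among the secreted antagonists of that list, all 7 tested were called higher as FPKM, but 4 of the 7 passed the filter through the bleomycin mice alone and had to differ, so this count is no support. One of these was *Bmper*, which had 0.0644 to 0.254 FPKM with saline and 7.96 to 20.9 FPKM with bleomycin, a log2 difference of 3.69 ± 0.30 (SE), and 1.35 ± 0.17 as scaled FPKM. *Nbl1*, another BMP antagonist of the DAN family, to which gremlin belongs, rose, with 0.453 to 4.66 FPKM with saline and 13.0 to 73.4 FPKM with bleomycin (3.72 ± 0.59, adjusted p = 0.00018), and scaled its difference was 1.04 ± 0.43 (adjusted p = 0.065). *Chrdl1*, a chordin-like antagonist, rose as FPKM by 0.74 on the log2 scale and fell by 0.54 as scaled FPKM. As scaled FPKM, 1 of the 7 was called higher and 2 lower.

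Among receptors and co-receptors, 5 of 6 tested were called higher as FPKM, of which 3 passed the filter through the bleomycin mice alone, and as scaled FPKM 1 rose and 3 fell. *Eng* had 1.66 to 3.51 FPKM with saline and 16.4 to 42.8 FPKM with bleomycin (log2 difference 3.26 ± 0.38, adjusted p = 2.9e-05; scaled 0.57 ± 0.19, adjusted p = 0.027). *Bmpr1a*, *Tgfbr3* and *Acvr2a*, the latter a type II receptor of activins, fell by 0.33, 0.33 and 0.67 as scaled FPKM, and as FPKM their differences were 0.96, 0.81 and 0.32, the last not called (adjusted p = 0.11). Of the 2 BMP ligands tested, *Bmp5* rose as FPKM by 1.69 on the log2 scale and had a scaled difference of -0.20 (adjusted p = 0.19). *Bmp3* had a difference of 0.61 as FPKM (adjusted p = 0.076) and fell by 0.54 as scaled FPKM.

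All 10 SMADs and intracellular regulators tested were called higher as FPKM, but 8 of the 10 passed the filter through the bleomycin mice alone and had to differ. As scaled FPKM 1 of them rose and 1 fell. *Fkbp1a*, whose product FKBP12 binds the type I receptors, rose most, with 7.15 to 16.9 FPKM with saline and 243 to 576 FPKM with bleomycin (4.92 ± 0.43, adjusted p = 1.3e-05; scaled 1.97 ± 0.27, adjusted p = 0.00018). *Smad5*, which carries BMP signals, rose by 1.10 as FPKM and fell by 0.59 as scaled FPKM. The inhibitory SMADs were low. *Smad6* had 0.252 to 1.78 FPKM with saline and 0.186 to 4.76 with bleomycin, and *Smad7* had 0.178 to 0.397 and 0.589 to 1.36, and neither passed the filter here.

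Among the targets, 3 of 4 tested were called higher as FPKM, 1 of which (*Msx1*) passed through the bleomycin mice alone, and 3 fell as scaled FPKM. *Id2* rose, with 8.24 to 25.3 FPKM with saline and 45.4 to 58.5 FPKM with bleomycin (1.78 ± 0.41, adjusted p = 0.0022), and fell by 1.03 ± 0.30 (adjusted p = 0.015) as scaled FPKM. *Id4* had 1.12 to 2.51 and 1.25 to 2.88 FPKM (0.13 ± 0.26, adjusted p = 0.64), and fell by 1.06 ± 0.15 (adjusted p = 0.00027) as scaled FPKM. The *Id* family thus split after scaling, with *Id3* higher, *Id1* overlapping, and *Id2* and *Id4* lower with bleomycin.

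**Figure D5:**
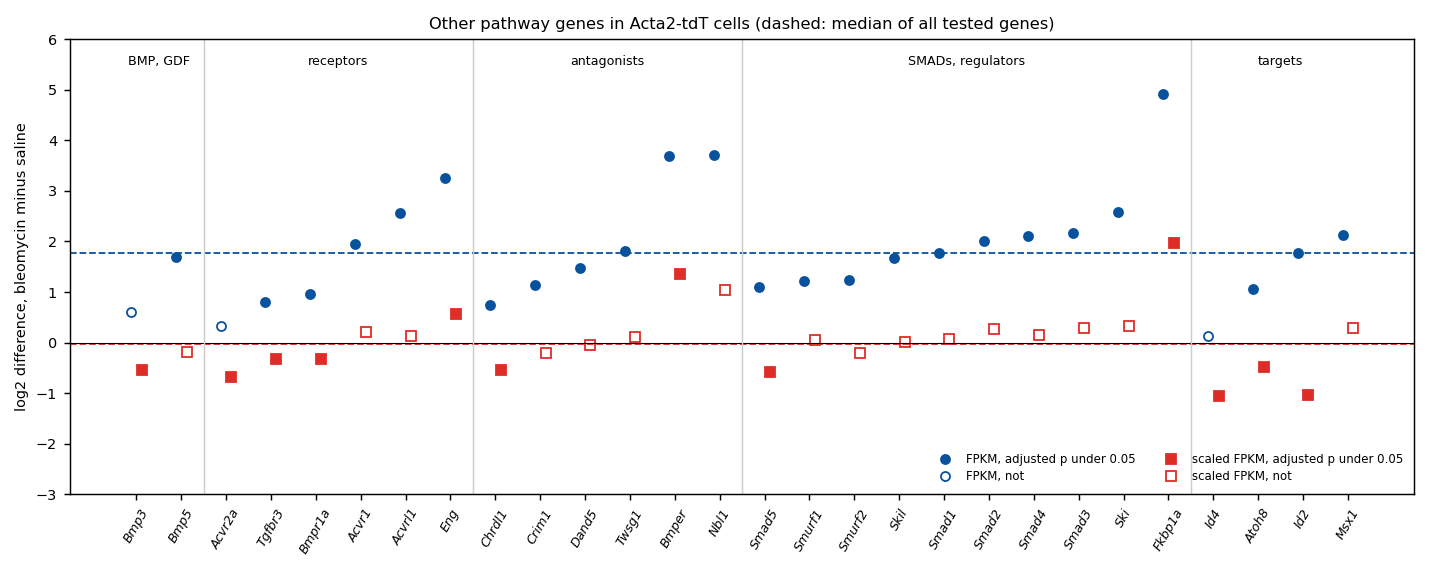
Log2 difference, bleomycin minus saline in *Acta2-tdT* cells (4 mice a group), of 28 of the 29 tested genes of the pathway list by role, as FPKM (circles) and scaled FPKM (squares); filled symbols have an adjusted p under 0.05 by limma and dashed lines are the medians of all tested genes. The FPKM values lie around their dashed line, and of the scaled values only *Fkbp1a*, *Bmper* and *Eng* are filled above 0.

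Between the lines with bleomycin, 25 of 32 tested pathway genes (78.1%) were higher in *Acta2-tdT* cells and none lower, beside 71% of all genes higher and 8.61% lower, with a median log2 difference of 1.48 against 1.81 for all genes, and 11 of the 32 passed through the *Acta2-tdT* mice alone. As scaled FPKM 4 (12.5%) were called higher and none lower, beside 15.8% and 17.6% of all genes. These were *Nbl1* (1.88 ± 0.47, adjusted p = 0.014), and *Bmper* (1.40 ± 0.22), *Smad3* (0.64) and *Twsg1* (0.42), which were tested through the *Acta2-tdT* mice alone. As FPKM, *Fkbp1a* was higher by 3.86 ± 1.20 (adjusted p = 0.011) and *Id2* by 2.54 ± 0.72 (adjusted p = 0.0072), and neither was called as scaled FPKM (1.23 ± 0.82, adjusted p = 0.27, and 0.02 ± 0.48, adjusted p = 0.97). Leaving out *Acta2-tdT* bleomycin mouse 5, 6, 7 or 8 left 13, 14, 11 and 10 calls among 18, 18, 18 and 16 tested. Of all genes, 6202 of 9426, 6477 of 9359, 5796 of 9337 and 5825 of 9399 were then called higher, and 637, 984, 359 and 286 lower.

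With saline, 7 pathway genes were tested between the lines and only *Id4* was called (14.3%), beside 2.72% of all genes higher and 0.184% lower. It had 1.12 to 2.51 FPKM in *Acta2-tdT* and 0.150 to 0.393 FPKM in *Pdgfra-tdT* cells (log2 difference 1.01 ± 0.19, SE), but it was tested through the *Acta2-tdT* mice alone and had to differ. No pathway gene was called when any 1 mouse other than *Pdgfra-tdT* mouse 3 was left out. Without that mouse 4 of 5 tested were called higher, beside 1793 higher and 348 lower of all 7356 tested genes. *Id2* differed by 1.97 ± 0.80 (adjusted p = 0.33). Leaving out 1 mouse gave 1.59 to 2.76, and over the alternatives its adjusted p by limma spanned 0.0025 to 0.67. In *Pdgfra-tdT* cells 4 pathway genes were tested for bleomycin against saline and none was called, beside 0.0275% of all genes higher and 0.0962% lower, and none had a limma p under 0.05 before adjustment (0 of 4, beside 312 of all 7275). *Fkbp1a* and *Id2* differed by 1.67 ± 1.49 and 1.21 ± 0.90 (adjusted p = 0.79 for both), and by 1.21 and 0.86 as scaled FPKM (adjusted p = 0.78 for both). Leaving out 1 mouse gave 0.59 to 2.77 for *Fkbp1a* and 0.83 to 1.99 for *Id2* as FPKM.

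The effect of bleomycin differed between the lines for 12 of 34 tested pathway genes (35.3%) as FPKM, all larger in *Acta2-tdT* cells, beside 36.6% of all genes larger and 3.2% smaller, with a median of 1.07 against 1.05 for all genes. Of the 34, 5 were tested through the *Acta2-tdT* bleomycin mice alone, among them *Bmper*, whose difference of effects was 3.76 ± 0.33 as FPKM and 1.5 ± 0.22 as scaled FPKM. The differences of effects were 3.33 ± 0.98 for *Nbl1* (adjusted p = 0.015), 2.28 ± 0.54 for *Ski* (adjusted p = 0.0046), a SMAD corepressor, and 2.2 ± 0.40 for *Msx1* (adjusted p = 0.0010), a homeobox target of BMPs. As scaled FPKM 1 gene, *Bmper*, was called larger and 2 smaller, 1 of them *Id4*, beside 1.33% and 0.891% of all genes. Without *Pdgfra-tdT* bleomycin mouse 5, 22 of 33 tested pathway genes were called larger as FPKM, beside 8006 larger and 1160 smaller of all 16137 tested genes. *Id2* (0.57 ± 1.04, adjusted p = 0.67) and *Smad6* (0.71 ± 0.91, adjusted p = 0.54) did not pass the threshold. Leaving out 1 mouse gave -0.21 to 0.95 for *Id2* and 0.12 to 1.22 for *Smad6*. Over the alternatives their adjusted p by limma spanned 0.016 to 0.92 and 0.23 to 0.97.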

How the data were processed

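RNA of tdTomato-positive lung cells of 16 mice was sequenced after SmartSeq2 amplification of full-length cDNA. Per the labels and the study's methods, the authors used TopHat2 2.1.1 with Bowtie2 2.2.9 for alignment to GRCm38 and Cufflinks 2.1.1 for FPKM of each mouse on its own. The submitters' processing notes also list Cuffdiff. These deposited FPKM, with no scaling between mice, were the values used, and read counts were not used here.

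Rows were summed per gene (49534 rows, 49452 genes), and 15 genes with a failed or too deep status were left out of tests. No pair of mice had identical values. Positions are those of the files, counted from 1. Scaled FPKM are FPKM times 49123, the median summed nuclear protein-coding FPKM, divided by the mouse's own sum. Tests used limma 3.58.1 in R 4.3.3 (eBayes with trend) on log2(FPKM + 1), for genes that reached 1 FPKM in 4 or more of the mice compared, with Benjamini-Hochberg adjustment over all genes and a threshold of 0.05. Fold changes on this scale understate those of low genes. A difference between 2 group means of the 10 genes is given with the SE of the unequal-variance form. Where nothing says how mice were housed or sorted together, p-values measure the spread between these mice.

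The 10 genes, the list of 77 pathway genes and the marker lists were chosen with earlier results of these data known. Of the pathway list, the genes named first are, in each comparison, up to 4 called with the largest change in each direction, or 2 where none was called, and always *Id2*, *Id4*, *Smad6* and *Smad7*. Others were named after their values were seen, and 1 gene of the list enters the counts but is not reported here by name. Alternatives were scaling, subtraction of the receptor-gene median before scaling, a pseudocount of 0.1, tests without the filter, a filter on mean FPKM (5 or more), eBayes without trend, all 16 mice in 1 fit, a replicate block and leaving out each mouse. Leaving out *Pdgfra-tdT* saline mouse 3 and bleomycin mouse 5 was chosen after seeing the data. The tests were run on simulated data with known changes beforehand. Sequences came from RefSeq promoters of GRCm38.p6. Tables and plots were made in Python 3.11.15 with pandas 2.3.3, NumPy 2.4.6 and matplotlib 3.10.9.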

Additional observations from a re-analysis of the deposited data

Results flagged for a closer look

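Among the 4 mice of each group, 10 of 40 sets of values of the 10 genes held 1 mouse far from the other 3 by Dixon's criterion. The sets share mice and the genes were chosen on these values, so the count is not set against a chance rate. *Pdgfra-tdT* bleomycin mouse 5 was high in *Fstl1* (9.31 FPKM), *Fstl3* (0.210), *Bmpr2* (8.66), *Id1* (150.4) and *Id3* (140.1). *Pdgfra-tdT* saline mouse 3 was high in *Bmp4* (2.47), *Bmpr2* (7.85), *Id1* (82.5) and *Id3* (37.9). Their endothelial markers summed to 967 and 366 FPKM, and the part of these in the values was not tested. *Acta2-tdT* bleomycin mouse 5 was high in *Bmpr2* (3.44 FPKM).

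The effect of bleomycin differed between the lines by limma's interaction term for *Bmper* (3.76 on the log2 scale), *Nbl1* (3.33), *Ski* (2.28) and *Msx1* (2.2), of which *Bmper* reached 1 FPKM in the *Acta2-tdT* bleomycin mice alone and so had to differ. As scaled FPKM it was 1.5 for *Bmper* and, with adjusted p in brackets, 0.98 for *Nbl1* (0.45), 0.25 for *Ski* (0.75) and 0.48 for *Msx1* (0.41).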

How the results depend on the processing

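Counts of called pathway genes moved with the scaling, the filter and the mice left out. Scaled to the same sum, they were 4 for the lines with bleomycin, 13 for bleomycin in *Acta2-tdT* and 3 for the interaction, and with the receptor-gene median subtracted first 8, 16 and 3. With a mean FPKM of at least 5 they were 0 for the lines with saline, 5, 7 and 1. The 1 call between the lines with saline became 0 with a pseudocount of 0.1, without filter, without trend and with the replicate block, and the interaction gave 7 with a pseudocount of 0.1. Without *Pdgfra-tdT* saline mouse 3 and bleomycin mouse 5, the lines with saline gave 4 (4 scaled) and the interaction 21 (6 scaled), and scaled values gave 9 for the lines with bleomycin. Leaving out 1 mouse gave 0 to 4 calls for the lines with saline, 10 to 27 for the lines with bleomycin, 8 to 25 for bleomycin in *Acta2-tdT*, 0 for bleomycin in *Pdgfra-tdT* and 8 to 22 for the interaction. The calls among all genes moved as well. For the lines with saline they went from 222 higher of 8153 tested genes to 1793 of 7356 without *Pdgfra-tdT* saline mouse 3.

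Scaled, *Bmp4* turned to -0.14 and *Bmpr2* to -0.19 in *Acta2-tdT* cells on the log2 scale, *Bambi* from 0.15 to -0.40. Between the lines with bleomycin *Bmp4* turned to -0.051, *Id1* from 2.24 to -0.18, *Bmpr2* from 0.22 to -0.64 and *Bambi* from 0.21 to -0.35. Without the 2 mice *Id1* did not turn (3.54 and 0.71 scaled), and *Bmpr2* did (0.90 and -0.30). *Id2* and *Id4* in *Acta2-tdT* cells turned to -1.03 and -1.06 scaled and to -1.14 and -0.91 with the gauge subtracted. Between the lines with bleomycin *Id2* turned to -0.019 with the gauge subtracted and to -0.00075 scaled without the 2 mice. In the interaction *Id4* turned to -0.85 scaled, -0.86 with the gauge subtracted and -0.92 scaled without the 2 mice, and *Id2* from 0.57 to -1.89 scaled and -2.54 in the last. The cause was not tested.

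Mouse numbers are shared by the lines, and nothing says whether same-numbered mice were handled together. The deviations of same-numbered mice had r of -0.09 to 0.16 with saline and -0.31 to 0.07 with bleomycin. Saline mice 1 and 3 were closest to their own number, and the other mice were not. With so few mice a group, these values cannot decide whether handling was shared. With the replicate block the lines with bleomycin gave 25 pathway calls. Between the lines with saline, the block took the calls of all genes higher from 222 to 34. The depth is unknown, and levels near the receptor genes cannot be told from background.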
